A study of Homo sapiens with 12 samples.

Results

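The 53 genes described here build and guard the attachment of chromosomes to the mitotic spindle. They were taken as a list of symbols and matched to the Ensembl rows of a count table that holds 60651 rows, and all 53 were found. They fall into 17 inner centromere genes, 15 outer kinetochore genes, 8 genes of the spindle assembly checkpoint, 6 genes of the chromosomal passenger complex and the shugoshins, 5 mitotic kinases and cyclins, and 2 genes of the mitotic chromosome itself. RNA was sequenced from 2 established human cholangiocarcinoma (CCA) cell lines, wild type by their labels and grown in different media. EGI-1 cells received DMSO (vehicle), 0.5 µM decitabine, 200 nM talazoparib or both drugs (combination), and HUCCT1 cells received DMSO or 1 µM decitabine, in each case for 72 h. Decitabine is a cytidine analogue that traps DNA methyltransferases, and talazoparib inhibits poly(ADP-ribose) polymerase. Each of the 6 arms held 2 libraries, for which no source names separate cultures. The names of the talazoparib libraries carry another number than the labelled dose, which is the one used here. The comparisons ask how each drug, and both together, moved these genes against vehicle.

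Kinetochores are assembled on centromeric chromatin that holds the histone H3 variant CENPA. The inner, constitutive centromere proteins stay on it through the cell cycle, and the outer kinetochore joins them in mitosis to bind microtubules through the NDC80 complex. The spindle assembly checkpoint senses kinetochores without microtubules and holds back CDC20, the activator of the anaphase-promoting complex, until all chromosomes are attached. Many of these genes are transcribed mainly in G2 and mitosis, so that their transcripts are scarce in cells held outside these phases. They need not be scarce in cells arrested in G2 or mitosis, and the study reports G2M arrest with the combination. In bulk RNA, fewer cells in these phases and less of a transcript in each such cell cannot be told apart.

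The EGI-1 libraries held 23139065 to 33181930 assigned counts and the HUCCT1 libraries 32519985 to 34965627. Levels are given as CPM, which are counts divided by the size of each library (TMM-scaled over all 12) and brought to a common total, with values listed for replicate 1 and then replicate 2, and fold changes are on the log2 scale with Benjamini-Hochberg adjusted p-values from edgeR over all genes tested. Of the epithelial markers, KRT8, KRT18, KRT19, EPCAM and CDH1 were expressed in every library, while KRT7, a cytokeratin of bile duct epithelium, was at 39.0 to 69.5 CPM in EGI-1 and at 4032 to 7507 CPM in HUCCT1. Against vehicle, KRT7 (log2 0.70, adjusted p = 6.98e-06) and KRT8 (log2 0.18, adjusted p = 0.00692) were higher in the EGI-1 combination. KRT18, KRT19, EPCAM and CDH1 did not pass. The endothelial gene VWF was higher there, at 7.39 and 5.69 CPM against 2.00 and 2.16 CPM (log2 1.64, adjusted p = 1.71e-05), while PECAM1 did not pass. The second EGI-1 combination library stood apart in leukocyte genes. It held PTPRC, the pan-leukocyte surface phosphatase, at 12.5 CPM and CD3E, a T cell receptor subunit, at 4.87 CPM, while the other 7 EGI-1 libraries reached at most 0.200 and 0.114 CPM. A list of 9 lymphocyte genes, chosen after these values were seen, summed to 26.5 CPM there with 0 of 9 genes at 0, against 0.295 to 0.630 CPM with 3 to 6 genes at 0 in the other EGI-1 libraries. Counts and calls that use the combination are therefore also given without that library. The library names of the 2 lines carry different codes, read here as sequencing lanes, although no label says so. The lines also received different decitabine doses, so that line, lane code and dose cannot be told apart between them.

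In vehicle the members spanned a wide range of levels per kilobase of exon. CCNB1, the cyclin that activates CDK1 for mitotic entry, led in EGI-1 at 114 ± 1.8 CPM per kilobase (SD, n = 2), followed by CDC20 at 95.3 ± 2.8, TOP2A at 90.8 ± 2.2 and MKI67 at 79.4 ± 0.68. CDC20 and TOP2A, neighbours in that order, differed by less than the sum of their SDs. In HUCCT1 the order at the top changed, with CDC20 at 167.1 ± 7, CCNB1 at 116 ± 5 and MKI67 at 85.1 ± 3.4 CPM per kilobase. The genes of the inner centromere group were lower, from 35.9 ± 0.19 for HJURP, the chaperone that deposits CENPA, down to 1.46 ± 0.08 for CENPP in EGI-1. CENPA itself stood at 19.5 ± 0.23 in EGI-1 and 20.9 ± 1.2 CPM per kilobase in HUCCT1.

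One subunit of each of 2 obligate complexes was nearly or wholly missing from the counts. SKA1, which with SKA2 and SKA3 forms the complex that couples kinetochores to depolymerizing microtubules, had 0 to 2 counts in all 12 libraries and could not be tested. Its partners were well covered, with SKA2 at 85.5 and 81.7 CPM and SKA3 at 16.7 and 19.4 CPM in EGI-1 vehicle. SPC25, the partner of SPC24 in the NDC80 complex, had 41 and 45 counts in EGI-1 vehicle and 13 and 12 counts in HUCCT1 vehicle, while SPC24 stood at 64.9 and 59.5 CPM and 53.6 and 53.5 CPM. Whether this came from the cells or from the way reads were assigned to these genes was not tested. The other 52 members passed the filter on low counts and entered every test.

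Between the vehicle arms, 15 members were higher and 15 lower in HUCCT1 than in EGI-1 of 52 tested, beside 55.8% of all genes called in either direction, 28.5% higher and 27.3% lower. NDC80, the subunit that gives the microtubule-binding complex its name, was at 31.4 and 27.0 CPM in HUCCT1 vehicle and at 90.2 and 91.1 CPM in EGI-1 vehicle, a log2 difference of -1.63 (SE 0.10, adjusted p = 4.13e-12). The libraries of the 2 lines did not come near each other. Its coiled-coil partner NUF2 stood at 34.5 and 27.2 CPM against 34.6 and 32.7 CPM and did not pass (log2 -0.13, SE 0.12, adjusted p = 0.384). CENPW, a histone-fold protein that pairs with CENPT, was lower in HUCCT1 at 6.52 and 6.81 CPM against 13.9 and 14.1 CPM, a log2 difference of -1.07 (SE 0.12, adjusted p = 1.18e-07).

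MIS12, a subunit of the complex that links inner to outer kinetochore, was likewise lower in HUCCT1, at 13.3 and 12.3 CPM against 25.0 and 23.9 CPM (log2 -0.93, SE 0.10, adjusted p = 7.57e-08). PMF1, another subunit of the same complex, went the other way at 73.2 and 83.8 CPM against 33.3 and 28.9 CPM (log2 1.34, SE 0.11, adjusted p = 1.33e-09). The libraries of the lines did not overlap for either gene. A neighbouring readthrough gene shares 23.3% of the exon bases of PMF1 on the same strand, so that the counts of PMF1 are uncertain. CDC20 was higher in HUCCT1 at 326 and 346 CPM against 196 and 188 CPM (log2 0.81, SE 0.07, adjusted p = 2.90e-09). CDCA8, the borealin subunit of the passenger complex, was also higher, at 116 and 120.1 CPM against 70.5 and 72.5 CPM (log2 0.72, SE 0.08, adjusted p = 7.87e-08). The inner centromere genes were split as 2 higher and 5 lower of 17, and the outer kinetochore genes as 4 higher and 4 lower of 14. With upper-quartile scaling the median of all genes moved to -0.127. The members then split as 12 higher and 17 lower, beside 6156 and 7921 of all genes.

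**Figure D1:**
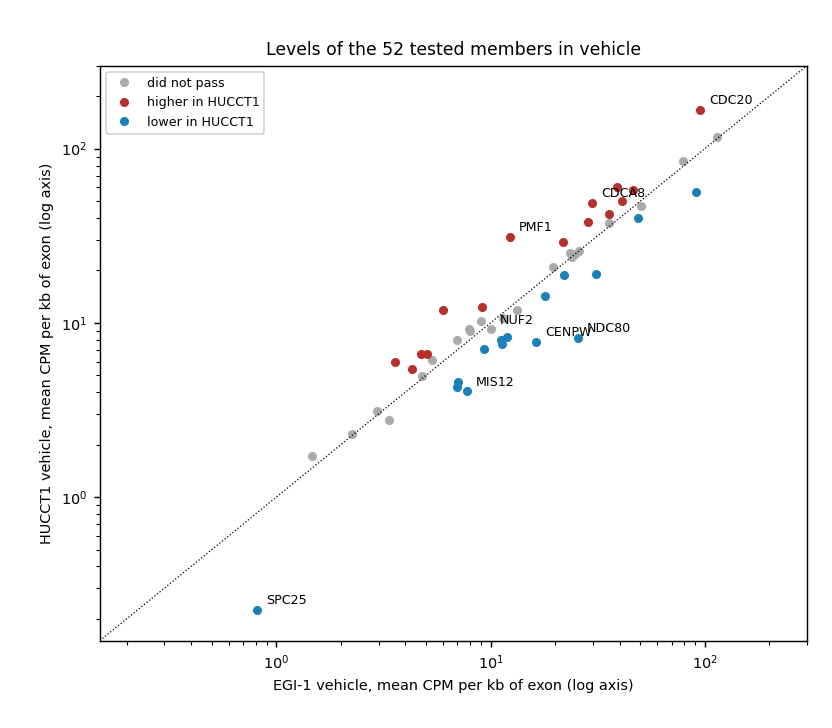
Mean level of each of the 52 tested members in vehicle, EGI-1 on the horizontal and HUCCT1 on the vertical axis, both in CPM per kilobase of exon on log axes, n = 2 libraries each, with colour for genes that passed at adjusted p under 0.05 and a dotted line of equality. NDC80, CENPW, MIS12 and SPC25 lie below the line, and PMF1, CDC20 and CDCA8 above it.

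The promoters of the members are shown as a description, since 38 of them were lower together in HUCCT1 after decitabine. Whether the motifs had a part in this was not tested. RefSeq (GRCh38.p14) gave a promoter for 43 of the 53 members, and the 250 bases before each start were searched on both strands for the CCAAT box (CCAAT), the cell cycle homology region (TTTGAA or TTTAAA) and an E2F motif (TTTCCCGC, TTTGGCGC, TTTGCCGC or TTTCGCGC). The first is read by the factor NF-Y and the second by the MuvB complex, which are known to regulate genes transcribed in G2 and mitosis. In the 43 windows the CCAAT box was found in 67.4%, beside 33% of all 27305 promoters, and the cell cycle homology region in 39.5%, beside 22.1%. Both stood together in 34.9% of member promoters and 7.85% of all promoters, and an E2F motif in 9.3% and 2.79%. All 4 kinases and cyclins with an entry and both mitotic chromosome genes held CCAAT and homology region, against 3 of 13 inner centromere and 3 of 14 outer kinetochore promoters. The last 130 bases before the RefSeq start are given for 6 of the members, with the motif letters in capitals, on the strand of the gene and 5′ to 3′. All 6 held a CCAAT box there, while other members lower in HUCCT1, such as NDC80 and NUF2, held none of the searched letters. The 10 members not matched were AURKA, BIRC5, BUB3, CENPH, CENPL, CENPM, KNL1, KNTC1, MIS18A and TTK.
CCNB2 (chr15:59105016-59105145, forward strand): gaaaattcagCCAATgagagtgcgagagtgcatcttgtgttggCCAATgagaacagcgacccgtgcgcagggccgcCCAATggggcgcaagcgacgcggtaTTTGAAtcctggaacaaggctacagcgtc
CCNB1 (chr5:69167020-69167149, forward strand): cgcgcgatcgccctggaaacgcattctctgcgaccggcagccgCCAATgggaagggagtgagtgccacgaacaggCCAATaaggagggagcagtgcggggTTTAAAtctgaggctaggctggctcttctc
CDC20 (chr1:43358851-43358980, forward strand): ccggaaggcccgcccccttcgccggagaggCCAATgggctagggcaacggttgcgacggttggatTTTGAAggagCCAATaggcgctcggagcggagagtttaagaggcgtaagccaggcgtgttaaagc
MKI67 (chr10:128126424-128126553, reverse strand): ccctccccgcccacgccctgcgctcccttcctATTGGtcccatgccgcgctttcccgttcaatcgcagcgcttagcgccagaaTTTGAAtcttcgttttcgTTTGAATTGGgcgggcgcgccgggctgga
BUB1 (chr2:110678064-110678193, reverse strand): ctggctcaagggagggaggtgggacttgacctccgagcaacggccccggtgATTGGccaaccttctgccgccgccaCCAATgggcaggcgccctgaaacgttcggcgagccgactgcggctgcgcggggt
CENPF (chr1:214603065-214603194, forward strand): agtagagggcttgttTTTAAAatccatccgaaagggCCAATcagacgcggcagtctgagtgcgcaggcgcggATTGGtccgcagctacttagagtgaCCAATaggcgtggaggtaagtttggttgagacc

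CCNB2 carried CCAAT boxes starting 120, 87 and 54 bases before its start, 33 bases apart, followed by TTTGAA at 29. CCNB1 showed the same order, with CCAAT at 87 and 55, 32 bases apart, and TTTAAA at 30. In CDC20 the homology region at 65 lay between CCAAT boxes at 100 and 55, and in MKI67 a TTTGAA at 29 shared its last letter with an inverted CCAAT box at 24. BUB1 held CCAAT boxes at 79 and 54 but none of the searched letters of the homology region or E2F, and CENPF held 3 CCAAT boxes and a TTTAAA at 115. Among members lower in HUCCT1 after decitabine, 15 of 30 promoters held the homology region. Among the others, which include SKA1 (not tested) and CENPT and MIS12 (higher), 2 of 13 did. For the CCAAT box the counts were 21 of 30 and 8 of 13. The promoter of CENPT held none of the searched letters. The same was true of NDC80, NUF2, DSN1, NSL1, SGO2, CENPI and CENPP, which were lower. It was also true of CENPO, SKA1, SKA3 and ZWILCH, which were not called lower. A match is a run of letters and was not tested for binding. For some members, PLK1 and NUF2 among them, the last 130 bases before the RefSeq start lay wholly within annotated exons.

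Most of these genes were lower in HUCCT1 cells after decitabine. Of 52 members tested, 38 were lower and 2 higher (adjusted p under 0.05), beside 33.5% of all genes called, 13.9% lower and 19.6% higher. The median log2 change of the members was -0.45, and that of all genes tested 0.0020. Both decitabine libraries lay below both vehicle libraries for 42 members and above them for 2, beside 30.7% and 34.4% of all genes. The lower members were 9 of 17 inner centromere genes, 9 of 14 outer kinetochore genes, 7 of 8 checkpoint genes, all 6 passenger and shugoshin genes, all 5 kinases and cyclins and both mitotic chromosome genes. Summed CPM over the inner centromere genes stood at 81.0% and 77.6% of the vehicle mean, and over the outer kinetochore genes at 71.8% and 67.8%. The kinases and cyclins stood at 71.8% and 69.3%. Vehicle libraries lay between 95.9% and 104% in every group, so that no group overlapped. With each library left out in turn, 26 to 34 members were called and 21 of the 38 lower members were called lower every time. Without the second decitabine library the count was 26, with 0 higher.

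**Figure D2:**
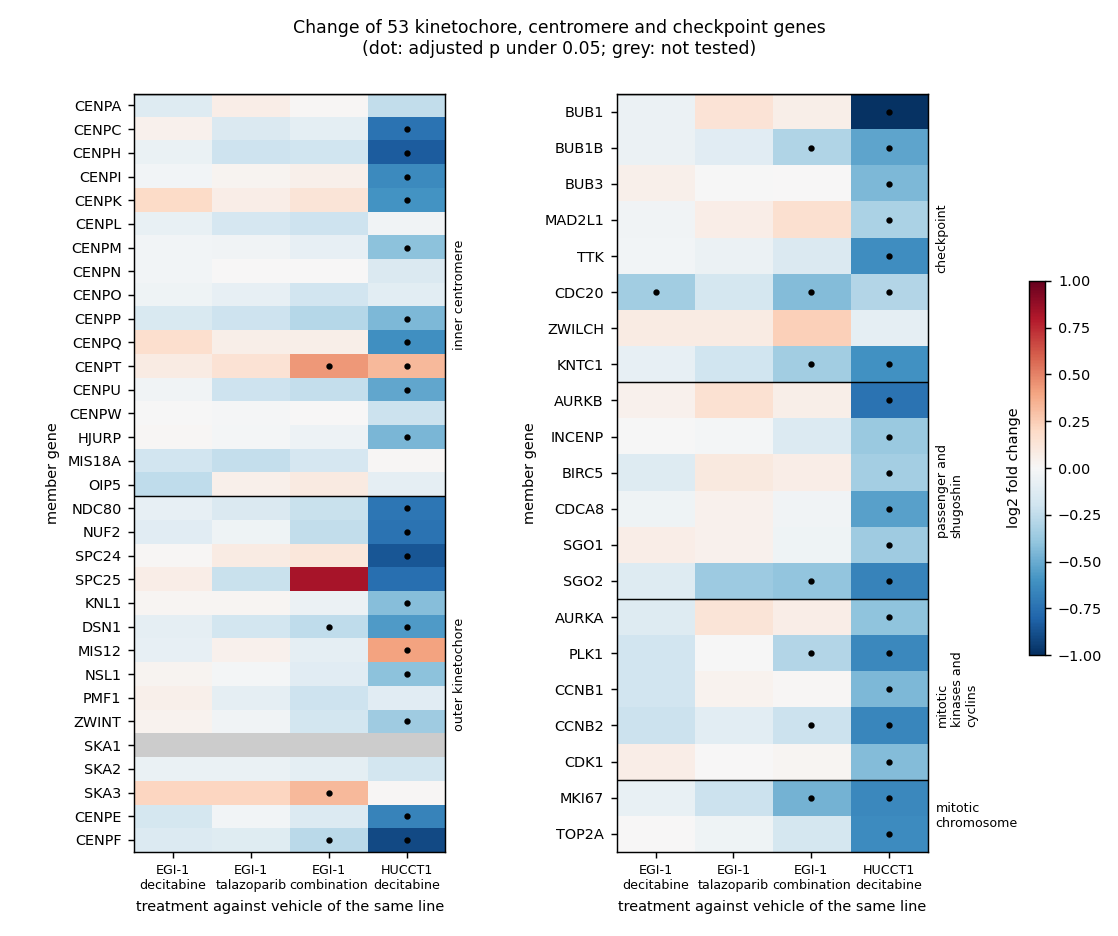
Log2 fold change of each of the 53 members (rows, in their 6 groups) in the 4 comparisons of a treatment with vehicle of the same line (columns), on a colour scale from -1 to 1. Dots mark adjusted p under 0.05, grey marks SKA1, which was not tested, and the HUCCT1 column is blue in nearly all rows while the EGI-1 columns are pale.

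**Figure D3:**
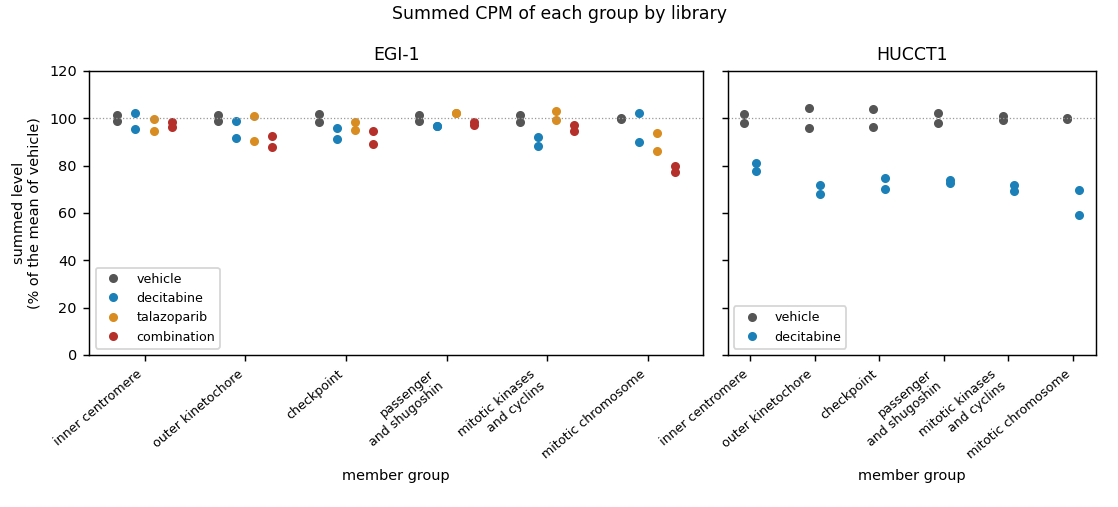
Summed CPM of each group of members in every library, as a percentage of the vehicle mean of the same line, with 1 point per library and n = 2 per arm. In HUCCT1 the decitabine points lie apart from vehicle in all 6 groups, and in EGI-1 the combination points of the mitotic chromosome pair (MKI67 and TOP2A) lie lowest.

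At the inner centromere of HUCCT1, CENPC, which bridges CENPA chromatin to the outer kinetochore, was at 28.1 and 25.0 CPM in vehicle and 17.9 and 14.2 CPM with decitabine, a log2 change of -0.74 (SE 0.14, adjusted p = 0.000149). CENPH, of the CENP-H/I/K module that sits beside CENPC, was at 31.1 and 24.0 CPM and 15.6 and 15.5 CPM, a log2 change of -0.83 (SE 0.14, adjusted p = 3.89e-05). Both decitabine libraries were below both vehicle libraries for each gene. CENPI and CENPK, of the same module, changed by -0.64 and -0.60 on the log2 scale, and HJURP by -0.45. CENPA was at 39.0 and 42.3 CPM and 32.6 and 36.3 CPM and did not pass (log2 -0.25, SE 0.12, adjusted p = 0.110). CENPL, CENPN, CENPO, CENPW, MIS18A and OIP5 did not pass either. Antisense and overlapping genes cover 92.5% of the exon bases of OIP5, 43.2% of CENPP and 31.6% of CENPO on the opposite strand. The study's methods, which describe EGI-1, name a stranded library kit, but no source states how strand was handled in counting.

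CENPT, the inner centromere protein that recruits the NDC80 complex by a second route, was one of the 2 members that rose. It stood at 27.2 and 28.8 CPM in vehicle and 33.2 and 37.4 CPM with decitabine, a log2 change of 0.32 (SE 0.12, adjusted p = 0.0385). MIS12 was the other, at 13.3 and 12.3 CPM and 17.7 and 16.4 CPM, a log2 change of 0.40 (SE 0.14, adjusted p = 0.0266). Decitabine libraries lay above vehicle for both. Genes on the opposite strand cover 20.2% of the exon bases of CENPT and 9.5% of MIS12. Both calls were lost with DESeq2, at adjusted p of 0.103 and 0.100. With a library left out, CENPT was called in 1 of 4 fits and MIS12 in none.

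At the outer kinetochore, 3 of the 4 subunits of the NDC80 complex fell, while SPC25, with 13 and 12 counts in vehicle and 5 and 10 with decitabine, did not pass. NDC80 went from 31.4 and 27.0 to 18.7 and 17.0 CPM (log2 -0.72, SE 0.13, adjusted p = 0.000103), NUF2 from 34.5 and 27.2 to 20.1 and 17.0 CPM (log2 -0.74, SE 0.14, adjusted p = 0.000149). SPC24, which tethers the complex to the inner side, went from 53.6 and 53.5 to 29.5 and 30.0 CPM (log2 -0.86, SE 0.11, adjusted p = 1.72e-06). CENPF, a large coiled-coil protein of the outermost layer, was at 331 and 299 CPM in vehicle and 180.1 and 159 CPM with decitabine, a log2 change of -0.90 (SE 0.11, adjusted p = 4.80e-07). For none of these genes did the arms overlap. KNL1, the scaffold that recruits the BUB proteins, was at 101 and 88.0 CPM and 77.6 and 63.6 CPM (log2 -0.43, SE 0.12, adjusted p = 0.00689), a call lost without the first vehicle or the second decitabine library. The mitotic motor CENPE changed by -0.67 on the log2 scale, DSN1 and NSL1 of the MIS12 complex by -0.56 and -0.41 and ZWINT, which binds KNL1, by -0.36, all past the threshold. PMF1, SKA2 and SKA3 did not pass.

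Of the checkpoint, BUB1 fell most among all members. This kinase marks centromeric chromatin and recruits other checkpoint proteins, and it was at 157 and 143 CPM in vehicle and 81.0 and 71.3 CPM with decitabine, a log2 change of -0.99 (SE 0.11, adjusted p = 1.34e-07). MAD2L1, the protein that binds and blocks CDC20, was at 45.3 and 42.1 CPM and 35.7 and 35.04 CPM (log2 -0.32, SE 0.12, adjusted p = 0.0379). CDC20 itself was at 326 and 346 CPM and 273 and 278 CPM (log2 -0.30, SE 0.10, adjusted p = 0.0301). The decitabine libraries lay below vehicle for all of these, but CDC20 was not called in any of the 4 fits with a library left out and MAD2L1 in 1 of 4. TTK, the kinase that starts checkpoint signalling, changed by -0.62, KNTC1 by -0.61, BUB1B by -0.53 and BUB3 by -0.45 on the log2 scale, all past the threshold. ZWILCH, which forms a complex with KNTC1, did not pass at -0.09.

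AURKB, the kinase of the passenger complex that corrects faulty attachments, was at 98.2 and 111 CPM in vehicle and 60.4 and 65.7 CPM with decitabine, a log2 change of -0.74 (SE 0.11, adjusted p = 9.45e-06). Its partners INCENP, BIRC5 (survivin) and CDCA8 changed by -0.37, -0.34 and -0.54. The shugoshins, which protect centromeric cohesion, changed by -0.36 for SGO1 and -0.67 for SGO2, the latter a call lost without the first vehicle library. PLK1, the polo kinase of mitotic entry and kinetochore assembly, went from 224 and 250.2 to 149 and 156 CPM (log2 -0.64, SE 0.11, adjusted p = 3.44e-05). CCNB2 went from 105 and 103 to 67.4 and 65.6 CPM (log2 -0.66, SE 0.11, adjusted p = 3.13e-05) and CCNB1 from 292 and 275 to 212 and 205 CPM (log2 -0.45, SE 0.11, adjusted p = 0.00157). Decitabine libraries were below vehicle for each. CDK1, the kinase that these cyclins activate, was at 86.9 and 63.04 CPM and 59.0 and 52.7 CPM (log2 -0.44, SE 0.13, adjusted p = 0.0120). Its vehicle libraries lay far apart, and the call was lost without the first of them, at log2 -0.19 (adjusted p = 0.377), and without the second decitabine library.

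MKI67, the antigen used to count cycling cells, was at 1063 and 1125 CPM in HUCCT1 vehicle and 763 and 643 CPM with decitabine, a log2 change of -0.65 (SE 0.11, adjusted p = 3.86e-05). TOP2A, the topoisomerase that untangles sister chromatids, was at 393 and 323 CPM and 249 and 216 CPM, a log2 change of -0.63 (SE 0.12, adjusted p = 0.000132). The arms did not overlap for either gene. Over the same libraries the summed level of 7 markers of other cell types (PTPRC, CD3E, PECAM1, VWF, LUM, DCN and ALB) was 15.5 and 11.4 CPM in vehicle and 22.2 and 23.4 CPM with decitabine. LUM, a fibroblast proteoglycan, made up most of it in vehicle and fell from 10.3 and 7.30 to 4.68 and 3.85 CPM, a log2 change of -1.05. The endothelial genes VWF and PECAM1 rose, VWF from 4.28 and 3.27 to 12.5 and 14.6 CPM and PECAM1 from 0.824 and 0.628 to 3.995 and 3.81 CPM. CD3E rose from 0 and 0.0330 to 0.531 and 0.776 CPM, while PTPRC, DCN and ALB stayed at or under 0.375 CPM. Of the epithelial markers of the line itself, KRT7, KRT8, KRT18 and KRT19 were lower with decitabine (log2 -0.69, -0.82, -0.90 and -0.59), CDH1 was higher (log2 0.73) and EPCAM did not pass (log2 -0.12). The part of these changes in the result was not tested.

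**Figure D4:**
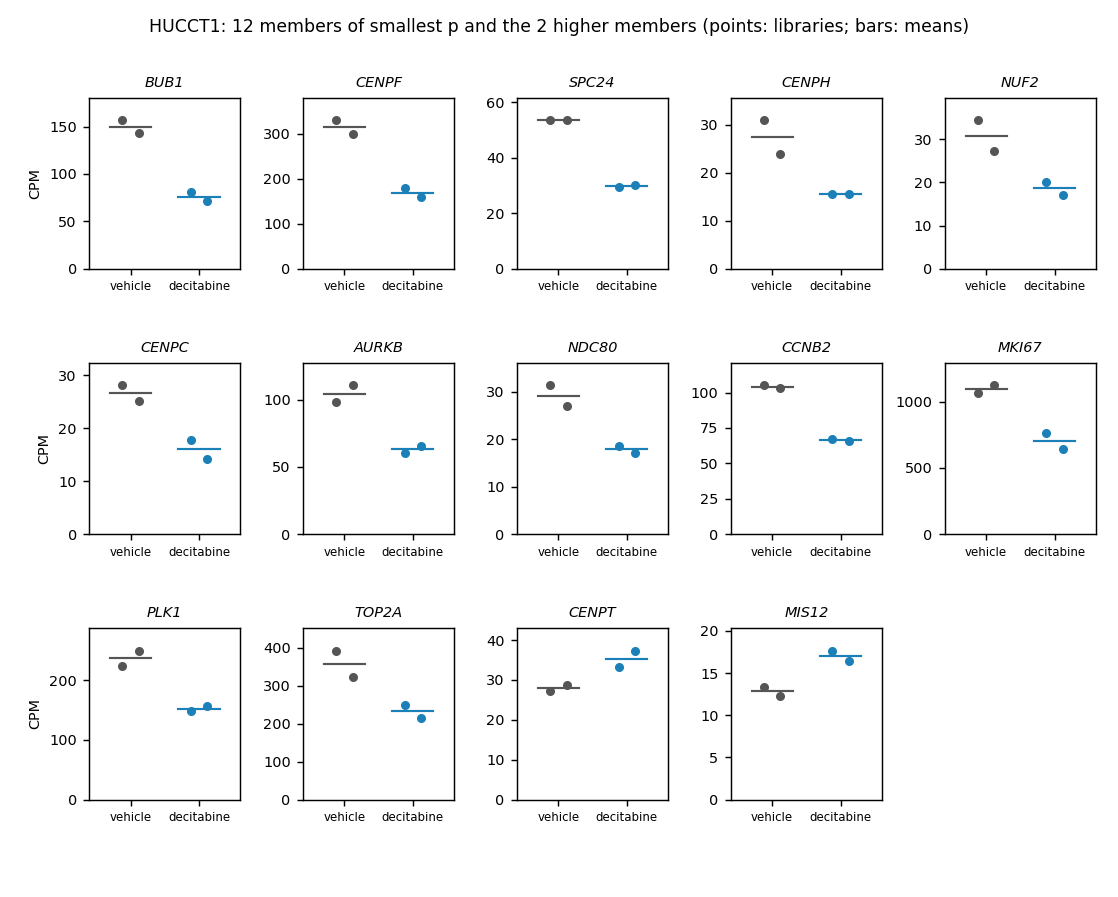
CPM in each of the 4 HUCCT1 libraries (points, replicate 1 left and replicate 2 right within an arm, bars for means, axes from 0) of the 12 members with the smallest p for decitabine and of CENPT and MIS12. In the first 12 panels both decitabine points lie below both vehicle points, and for CENPT and MIS12 they lie above.

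In EGI-1, few of these genes passed the threshold with either drug alone. Both decitabine libraries lay below both vehicle libraries for 19 members and above them for 2, beside 19.4% and 19.3% of all genes. With decitabine, 1 of 52 members was lower and 0 higher, beside 0.544% of all genes called, 0.0268% lower and 0.518% higher. That gene was CDC20, at 196 and 188 CPM in vehicle and 147 and 153 CPM with decitabine, a log2 change of -0.35 (SE 0.06, adjusted p = 0.0103). At an unadjusted p under 0.05, 4 members were lower and 0 higher, beside 3.12% and 6.03% of all genes, the others being PLK1, CCNB1 and CCNB2. Their log2 changes were -0.19 (SE 0.06, adjusted p = 0.192) for PLK1, -0.19 (SE 0.05, adjusted p = 0.163) for CCNB1 and -0.21 (SE 0.07, adjusted p = 0.218) for CCNB2. CDC20 was not called without the first or without the second vehicle library, or when the fit held only the 2 arms compared.

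With talazoparib, edgeR called 0 of 52 members, beside 4.12% of all genes (2.83% higher and 1.29% lower), and DESeq2 called 2, both lower. The share of all genes called was not recorded for DESeq2 or for the other fits of this comparison given below. Both talazoparib libraries lay below both vehicle libraries for 14 members and above them for 8, beside 24.7% and 24.5% of all genes. At an unadjusted p under 0.05, 5 members were lower and 1 higher, beside 6.61% and 9.33% of all genes. The smallest adjusted p belonged to SGO2, at 44.9 and 44.7 CPM in vehicle and 31.7 and 37.7 CPM with talazoparib (log2 -0.36, SE 0.10, adjusted p = 0.0577), and to MKI67, at 1014 and 1026 CPM and 843 and 914 CPM (log2 -0.21, SE 0.06, adjusted p = 0.0661). Both talazoparib libraries were below both vehicle libraries for each. KNTC1, CDC20 and DSN1 were the other genes below zero, and AURKB the one above it (log2 0.15, SE 0.06, adjusted p = 0.212). The edgeR count was 4, all lower, in the fit of these 2 arms alone and without the first or without the second decitabine library.

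With the combination, 9 of 52 members were lower and 2 higher than in vehicle, beside 18.7% of all genes called, 7.61% lower and 11.1% higher. The median log2 change of the members was -0.09, beside -0.02 over all genes tested. The lower genes were 3 of 8 checkpoint genes, 2 of 14 outer kinetochore genes, 2 of 5 kinases and cyclins, 1 of 6 passenger and shugoshin genes and 1 of 2 mitotic chromosome genes, and 0 of 17 inner centromere genes. The changes were small, none of the called genes lying beyond -0.47 on the log2 scale. Both combination libraries lay below both vehicle libraries for 26 members and above them for 8, beside 30.7% and 29.6% of all genes. The first combination library alone lay below both for 35 and above both for 9, beside 42.6% and 40% of all genes. Of the 17 inner centromere genes, both combination libraries lay below both vehicle libraries for 9 and above them for 1. Summed CPM over the mitotic chromosome pair stood at 77.2% and 79.6% of the vehicle mean, over the outer kinetochore at 87.7% and 92.6% and over the inner centromere at 96.4% and 98.6%. Without the library that held leukocyte transcripts, 6 members were lower and 1 higher, beside 10.7% of all genes called (3.85% lower and 6.88% higher), and the median was -0.12. The count ran from 4 to 18 over fits with a library left out, being 4 without the second vehicle library, 5 without the first vehicle or first combination library and 18 without the first or without the second decitabine library. It was 20 in the fit of the 2 arms alone. For these fits with another library left out or fewer arms, the share of all genes called was not recorded. MKI67, CDC20, PLK1 and KNTC1 were called lower in the main fit and in all 15 alternatives.

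MKI67 fell most, from 1014 and 1026 CPM in vehicle to 747 and 732 CPM with the combination, a log2 change of -0.47 (SE 0.06, adjusted p = 3.68e-05) and of -0.45 (adjusted p = 0.00136) without the second combination library. It had been at 1027 and 897 CPM with decitabine and 843 and 914 CPM with talazoparib, so that both combination libraries were below all 6 others. CDC20 was at 145 and 141 CPM with the combination, a log2 change of -0.43 (SE 0.06, adjusted p = 7.24e-05) and of -0.41 (adjusted p = 0.00278) without that library. It thus lay close to decitabine alone and below talazoparib alone, at 175 and 163.2 CPM.

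KNTC1, a subunit of the RZZ complex that brings dynein and the MAD proteins to kinetochores, went from 104 and 98.9 to 77.3 and 83.5 CPM (log2 -0.35, SE 0.07, adjusted p = 0.00154, or -0.40, adjusted p = 0.00553, without the second combination library). It was at 95.7 and 95.9 CPM with decitabine and 84.9 and 92.0 CPM with talazoparib, between vehicle and combination. PLK1 went from 197 and 195 to 165.8 and 156 CPM (log2 -0.29, SE 0.06, adjusted p = 0.00157, or -0.25, adjusted p = 0.0357, without that library). With talazoparib alone PLK1 was at 194 and 196 CPM, overlapping vehicle. BUB1B, the checkpoint protein BubR1, went from 79.5 and 80.6 to 63.8 and 66.9 CPM (log2 -0.30, SE 0.07, adjusted p = 0.00728, or -0.33, adjusted p = 0.0281, without that library). Another gene overlaps 10.2% of the exon bases of BUB1B on the same strand, and genes on the opposite strand overlap 12.8% of PLK1. The call of BUB1B was lost without the first vehicle, second vehicle or first combination library (adjusted p = 0.0618, 0.0875 and 0.0654).

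SGO2 stood at 31.1 and 37.3 CPM with the combination against 44.9 and 44.7 CPM in vehicle (log2 -0.39, SE 0.10, adjusted p = 0.0124, or -0.53, adjusted p = 0.00851, without the second combination library). Its call was lost without the first vehicle library (adjusted p = 0.0886), the second vehicle library (0.0866) or the first combination library (log2 -0.27, adjusted p = 0.146). Talazoparib alone had given 31.7 and 37.7 CPM, overlapping the combination. CENPF, DSN1 and CCNB2 were called with all libraries but not without any single one of the 4 vehicle and combination libraries. CENPF went from 295 and 292 to 237 and 252 CPM (log2 -0.27, SE 0.08, adjusted p = 0.0207, then -0.31, adjusted p = 0.0524). DSN1, of the MIS12 complex, went from 35.003 and 37.4 to 29.2 and 31.6 CPM (log2 -0.26, SE 0.08, adjusted p = 0.0371, then -0.31, adjusted p = 0.0662). CCNB2 went from 80.2 and 76.8 to 67.1 and 69.1 CPM (log2 -0.21, SE 0.07, adjusted p = 0.0301, then -0.23, adjusted p = 0.0912), with decitabine alone at 69.0 and 65.9 CPM. For all 3 genes both combination libraries were below both vehicle libraries.

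CENPT rose in the combination, as it had with decitabine in HUCCT1, from 28.7 and 25.2 to 39.0 and 34.6 CPM (log2 0.44, SE 0.10, adjusted p = 0.00343, or 0.53, adjusted p = 0.00646, without the second combination library). Each drug alone left it at 27.6 and 29.5 CPM for decitabine and 28.1 and 31.2 CPM for talazoparib, below both combination libraries. The call of CENPT was lost without the second vehicle (log2 0.35, adjusted p = 0.0977) or the first combination library (log2 0.35, adjusted p = 0.0542). SKA3 was the other gene higher, from 16.7 and 19.4 to 21.8 and 23.6 CPM (log2 0.33, SE 0.11, adjusted p = 0.0439), and was not called without that library at log2 0.27 (adjusted p = 0.244), nor without any other vehicle or combination library. SPC25 had the largest fitted change, log2 0.82 (SE 0.38, adjusted p = 0.165), on 41 and 45 counts in vehicle and 36 and 113 counts with the combination, where the higher value came from the library with leukocyte transcripts.

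**Figure D5:**
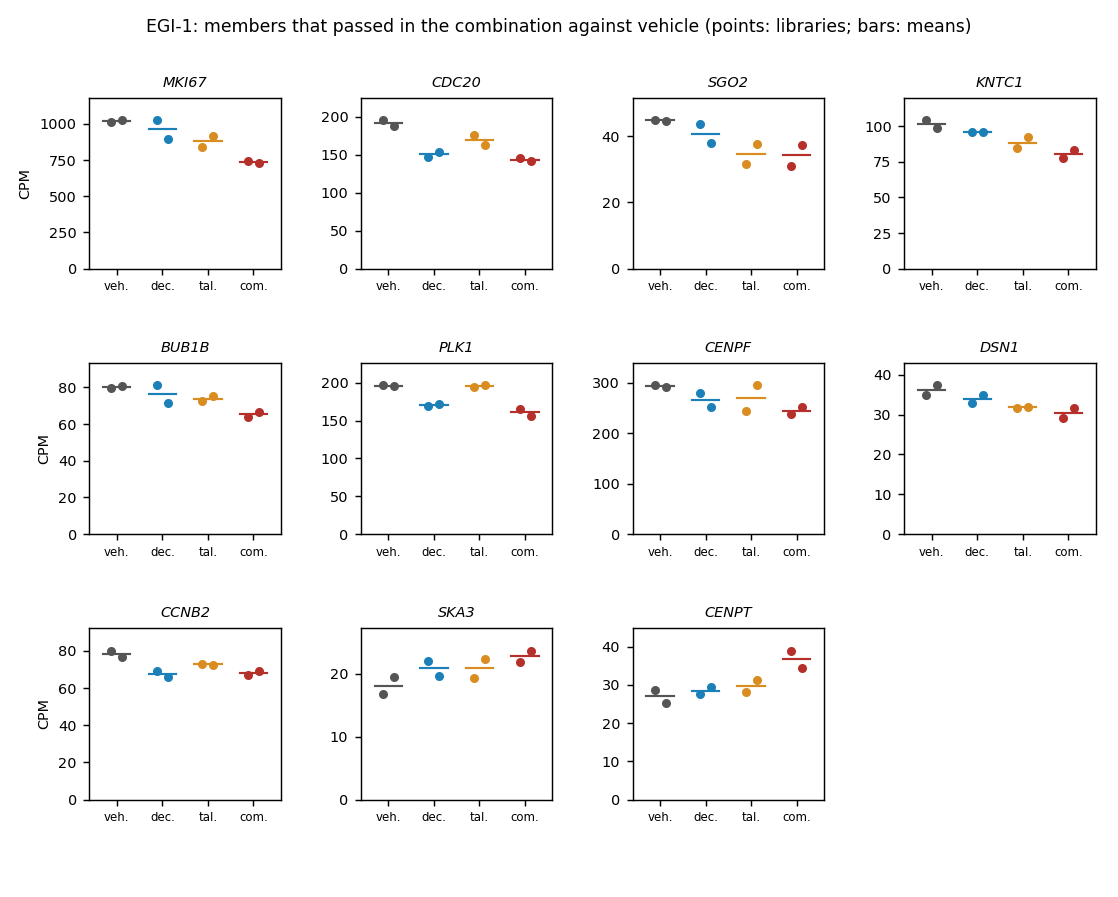
CPM in each of the 8 EGI-1 libraries (points, replicate 1 left and replicate 2 right within an arm, bars for means, axes from 0) of the 11 members that passed for the combination against vehicle. Both combination points lie below both vehicle points in the first 9 panels and above them for SKA3 and CENPT.

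Several central members did not pass in the EGI-1 combination. CENPA was at 38.3 and 37.7 CPM in vehicle and 37.5 and 39.6 CPM with the combination (log2 0.01, SE 0.08, adjusted p = 0.923). CENPC was at 24.6 and 25.6 CPM and 23.3 and 24.0 CPM (log2 -0.09, SE 0.11, adjusted p = 0.617). BUB1 was at 152 and 151 CPM in vehicle and 151 and 165.8 CPM with the combination (log2 0.06, SE 0.07, adjusted p = 0.607). AURKB was at 115 and 110.3 CPM and 119 and 116 CPM (log2 0.06, SE 0.06, adjusted p = 0.570). These 2 kinases are among the members that fell most with decitabine in HUCCT1. CCNB1 stood at 275 and 286 CPM against 279.9 and 274 CPM (log2 0.01, SE 0.05, adjusted p = 0.918), and CDK1 at 115 and 133 CPM against 126 and 118 CPM (log2 0.02, SE 0.09, adjusted p = 0.930). NDC80, at 76.0 and 80.2 CPM against 90.2 and 91.1 CPM, missed the threshold (log2 -0.22, SE 0.08, adjusted p = 0.0565), as did TOP2A at 487 and 541 CPM against 589 and 569 CPM (log2 -0.18, SE 0.07, adjusted p = 0.0710), although their arms did not overlap. NDC80 passed in 7 of 15 alternatives and TOP2A in 5, among them the fit of the 2 arms alone (adjusted p = 0.00433 and 0.00762) and those without a decitabine library. Without the second combination library neither passed, at log2 -0.26 (adjusted p = 0.111) and -0.25 (adjusted p = 0.0509). KNL1 changed by -0.06 (SE 0.08, adjusted p = 0.699) and MAD2L1 by 0.16 (SE 0.07, adjusted p = 0.129) on the log2 scale. Without the second combination library, the changes of CENPA, CENPC, BUB1, AURKB, CCNB1, CDK1, KNL1 and MAD2L1 lay between -0.13 and 0.10 and none passed.

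Set against the single drugs, the combination differed in few members. Against decitabine, CENPT (log2 0.35, SE 0.09, adjusted p = 0.0299) and CCNB1 (log2 0.20, SE 0.05, adjusted p = 0.0278) were higher and MKI67 (log2 -0.39, SE 0.06, adjusted p = 0.000581) and KNTC1 (log2 -0.27, SE 0.07, adjusted p = 0.0212) lower, beside 7.68% of all genes called, 4.42% higher and 3.26% lower. CCNB1 was at 242 and 239.7 CPM with decitabine and 275 and 286 CPM with the combination beside 279.9 and 274 CPM in vehicle. The calls of this comparison numbered 1 without the second vehicle library, 2 without the first vehicle or first combination library, 3 without the second combination library and 11 without the second decitabine library. Against talazoparib, PLK1 (log2 -0.29, SE 0.06, adjusted p = 0.0128), MKI67 (log2 -0.26, SE 0.06, adjusted p = 0.0392) and CDC20 (log2 -0.25, SE 0.06, adjusted p = 0.0403) were lower and 0 higher, beside 1.92% of all genes (1.36% higher and 0.567% lower), and edgeR called 0 members without either vehicle library, either talazoparib library or the second combination library. These comparisons share the combination libraries. In the test of departure from the sum of the 2 single effects, edgeR and DESeq2 called 0 of 52 members, beside 0.161% of all genes (0.00893% higher and 0.152% lower). One member, CCNB1, had an unadjusted p under 0.05, with a log2 departure of 0.17 (SE 0.08, adjusted p = 1.000).

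The effect of decitabine differed between the lines for 25 of 52 members (interaction term in 1 fit of all 12 libraries), 24 of them lower in HUCCT1 and MIS12 higher, beside 15.9% of all genes, 7.2% lower and 8.74% higher. The differences on the log2 scale were -0.91 (SE 0.12, adjusted p = 1.38e-05) for BUB1, -0.85 (SE 0.13, adjusted p = 5.85e-05) for SPC24 and -0.76 (SE 0.11, adjusted p = 4.04e-05) for AURKB. They were -0.75 (SE 0.13, adjusted p = 0.000252) for CENPF, -0.55 (SE 0.12, adjusted p = 0.00201) for MKI67 and -0.62 (SE 0.13, adjusted p = 0.00243) for TOP2A. The 24 genes were 6 of 17 inner centromere, 7 of 14 outer kinetochore, 4 of 8 checkpoint, 3 of 6 passenger and shugoshin, 2 of 5 kinase and cyclin and 2 of 2 mitotic chromosome genes. In EGI-1, decitabine had left BUB1 at 152 and 136 CPM beside 152 and 151 CPM in vehicle, SPC24 at 58.6 and 66.3 CPM beside 64.9 and 59.5 CPM and AURKB at 117 and 114 CPM beside 115 and 110.3 CPM. CENPF stood at 280.2 and 252 CPM and TOP2A at 610.3 and 543 CPM with decitabine in EGI-1, beside 295 and 292 CPM and 589 and 569 CPM in vehicle. The HUCCT1 cells had received the higher dose. The count was 16, with 0 higher, without the second EGI-1 vehicle library. All 9 members lower in the EGI-1 combination were also lower in HUCCT1 with decitabine, that is 100% of the first list and 23.7% of the 38 in the second, where 73.1% of all tested members were lower in HUCCT1. These comparisons share no library. The overlap counts calls made with all libraries. Several of these calls, among them DSN1, CENPF and CCNB2 in EGI-1 and CDC20 in HUCCT1, were lost with a library left out, as given above. CENPT was higher in both, and 0 members were called in opposite directions.

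The wider mitotic machinery was read from 79 further genes in 6 lists. In HUCCT1, 47 were lower and 0 higher with decitabine, beside the 33.5% of all genes called (13.9% lower), with a median log2 change of -0.35. They were 18 of 24 spindle and cytokinesis genes, 13 of 17 condensin and cohesin genes, 6 of 20 genes of the anaphase-promoting complex and securin, 5 of 8 mitotic entry genes, 3 of 5 other checkpoint genes and 2 of 5 other centromere genes. The smallest p in each list belonged to ANLN, the cytokinetic anillin (log2 -0.97, SE 0.12, adjusted p = 4.16e-07), SMC4 of condensin (log2 -0.67, SE 0.11, adjusted p = 1.91e-05) and ESPL1, separase (log2 -0.94, SE 0.11, adjusted p = 2.27e-07). In the remaining lists it belonged to WEE1, the kinase that restrains CDK1 (log2 -0.80, SE 0.11, adjusted p = 3.44e-06), ZW10, the third RZZ subunit (log2 -0.40, SE 0.12, adjusted p = 0.00778), and CENPB, which binds centromeric DNA repeats (log2 -0.55, SE 0.11, adjusted p = 0.000449).

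In the EGI-1 combination, 17 of these 79 genes were lower and 2 higher, 24.1% called beside 18.7% of all genes, with a median log2 change of -0.12. Without the second combination library 13 were lower and 1 higher, beside 10.7% of all genes, and the median was -0.14. The lower genes were 7 of 17 condensin and cohesin genes, 7 of 24 spindle and cytokinesis genes and 1 in each of 3 other lists, other centromere, securin and mitotic entry. Of the genes with the smallest p in their list, WEE1 changed most (log2 -0.71, SE 0.07, adjusted p = 6.14e-07), followed by the cohesin subunit STAG1 (log2 -0.57, SE 0.08, adjusted p = 4.55e-05) and the spindle motor KIF22 (log2 -0.44, SE 0.07, adjusted p = 0.000132). These 3 were also called without that library, at log2 -0.68, -0.49 and -0.42 (adjusted p = 6.13e-05, 0.00246 and 0.00460). PTTG1, securin, changed by -0.23 (SE 0.07, adjusted p = 0.0226) and the centromere protein ITGB3BP by -0.44 (SE 0.14, adjusted p = 0.0387). MAD2L1BP, which takes MAD2L1 off CDC20, was higher (log2 0.24, SE 0.08, adjusted p = 0.0436). The last 3 were not called without that library, at adjusted p of 0.0927, 0.0559 and 0.242.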

How the data were processed

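Total RNA of 12 libraries was sequenced, and the authors deposited raw counts per Ensembl gene, which were not normalized. The submitters' processing notes name fastp, Trim Galore, HISAT2, featureCounts and GRCh38, while the study's methods name STAR and RSEM. The strand setting, the annotation release and how multiply matching reads were counted are not given in the sources used here. Reads can be lost or shared between overlapping genes accordingly. Of 60651 rows, 60437 were matched to a symbol.

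Counts were analysed with edgeR 4.0.16 in R 4.3.3 (filterByExpr by arm, TMM scaling, robust quasi-likelihood fit), with Benjamini-Hochberg adjustment over all genes tested and a threshold of 0.05. One fit held the 8 EGI-1 libraries (22406 genes), one the 4 HUCCT1 libraries (22479 genes) and one all 12 (25096 genes), the latter for comparisons between lines. CPM were scaled by the TMM factors of the 12 libraries (0.866 to 1.06) and divided by exon length (GENCODE 44) for comparisons between genes. Replicates differed by more than sampling noise (chi-square per gene 2.73 to 12.6). The p-values measure only the spread between libraries, which may be technical. An exact permutation test of 2 against 2 libraries cannot go below 0.333 and was not used. Scripts were tested on simulated data.

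The members and lists were chosen with earlier results of these data known. Values per library are given for members called in the EGI-1 combination, the 12 of smallest p and those higher in HUCCT1, 12 genes in any case, the 3 of smallest p in each direction between vehicle arms and the 6 of smallest p between lines. Of the pathway genes, the one of smallest p in each list is named. Other members named (among them SPC25, SKA2, NUF2 in vehicle, the genes of unadjusted p under 0.05 with a single drug) and the 9 lymphocyte genes (in addition to the marker lists) were chosen after their values were seen. Alternatives were DESeq2 1.42.0, DESeq2 or upper-quartile size factors in edgeR, no filter on low counts, a replicate block, fewer arms in the fit, and each library left out in turn.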

Additional observations from a re-analysis of the deposited data

Results flagged for a closer look

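The effect of decitabine differed between HUCCT1 and EGI-1 for 25 members by the interaction term (edgeR, adjusted p under 0.05), 24 of them lower in HUCCT1. In this comparison line, lane code and dose cannot be told apart. Among the genes with values per library, the difference of log2 changes (HUCCT1 minus EGI-1) was -0.91 for BUB1, -0.85 for SPC24, -0.76 for AURKB, -0.76 for CENPC, -0.75 for CENPF and -0.74 for CENPH. It was -0.62 for NDC80, -0.61 for NUF2, -0.62 for TOP2A, -0.55 for MKI67, -0.51 for KNTC1 and -0.49 for CDCA8. The smaller differences were -0.46 for DSN1, -0.45 for BUB1B, -0.43 for PLK1 and -0.43 for CCNB2. For MIS12, the member that was higher in HUCCT1, it was 0.50.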

How the results depend on the processing

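In HUCCT1 the 40 members called after decitabine became 26 to 34 with a library left out and 34 with DESeq2 (0 higher). In EGI-1 the 11 called for the combination became 4 to 18 with a library left out and 20 in a fit of only these arms. Other alternatives gave 8 with DESeq2, 14 without the filter and 16 with upper-quartile factors (1 higher and 15 lower). Of all genes, 2177 were called higher and 2244 lower with those factors, against 2489 and 1705 in the main fit. With DESeq2, without the filter, with fewer arms or with another library left out, the share of all genes called was not recorded. For talazoparib the count of 0 became 2 with upper-quartile factors, 2 without the filter, 2 with DESeq2, 4 with only the arms compared and 0 to 4 with a library left out. For decitabine in EGI-1 the count of 1 became 0 with only the arms compared and 0 to 1 with a library left out. The combination against decitabine, with 4, gave 8 without the filter, 1 with only the arms compared and 1 to 11 with a library left out, and against talazoparib, with 3, gave 0 to 4. The decitabine effect between lines, with 25, gave 16 to 28 and the vehicle arms, with 30, gave 26 to 31 with a library left out. Pathway genes called for the combination, 19, became 14 without the second combination library, an alternative chosen after seeing the data. The departure from the single effects stayed at 0 in every alternative. The cause was not tested. For the named genes, 368 of the recomputed values for the EGI-1 combination kept their side of the threshold, 17 gained and 35 lost it, and for HUCCT1 these numbers were 227, 1 and 24. No result changed direction past the threshold.

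No label ties equal replicate numbers to a shared culture or day. With 2 numbers an arm, the deviations of equal numbers correlated from -0.405 to 0.246 in EGI-1 and at 0.40 in the single HUCCT1 pair of arms, and the numbers were not taken as pairs. With the replicate block, the calls numbered 1 against decitabine and 1 against talazoparib for the combination, 8 for the combination against vehicle, 42 in HUCCT1, 25 between lines and 30 between vehicle arms. In HUCCT1 the block brought CENPA past the threshold (log2 -0.25, adjusted p = 0.00597). With a replicate block by the series in the library names they were 2, 1 and 8 for the first 3 of these. For the fits with a block, the share of all genes called was not recorded.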
